A study of Saccharomyces cerevisiae with 11 samples.

Results

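The proteasome genes of Saccharomyces cerevisiae and RPN4, the gene of their transcription factor, were followed as cultures slowed from steady growth to almost none. Members were the genes whose only symbol on their probe set is PRE, PUP, RPN or RPT followed by a number, or SCL1. The rule took 34 of 5656 genes, read by 39 probe sets, and all 34 were among the 5597 genes tested. By role, 14 encode the core particle (7 in the alpha ring and 7 in the beta ring) and 18 the regulatory particle (9 in the base, 8 in the lid, and RPN10 between them). The remaining 2, RPN4 and RPN14, belong to neither particle.

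The proteasome degrades proteins that carry ubiquitin chains. Its core particle is a barrel in which beta rings, holding the protease sites, lie between alpha rings that gate the entrance. The regulatory particle caps the barrel: its base unfolds the substrate with a ring of ATPases, and its lid strips off the ubiquitin. In yeast Rpn4 activates transcription of most proteasome genes and is itself degraded rapidly by the proteasome, a negative feedback loop that keeps the amount of the complex steady.

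All arrays came from 1 haploid prototrophic laboratory strain, CEN.PK113-7D, which is of mating type MATa and carries MAL2-8c and SUC2, grown without oxygen with glucose as the limiting nutrient. The chemostat group held 3 independent cultures growing at 0.025 per h. In a retentostat a filter keeps the cells in the vessel while medium still flows, and duplicate retentostats were sampled at day 2 (0.0084 per h), day 9 (0.0024 per h), day 16 (0.0011 per h) and day 22 (0.00063 per h), with 2 arrays at each day. Retentostat arrays of different days therefore share their vessels, and the 4 comparisons with the chemostat share its 3 arrays.

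Levels are deposited array intensities, in arbitrary units, with means ± SD over arrays. The trimmed means of the arrays lay between 300.21 and 300.28, so a change is one in a gene's share of the labelled RNA. Fewer cells with a transcript and less of it per cell cannot be told apart. The ratio of the actin control's 5′ to 3′ signal, a measure of RNA integrity, was 0.766 to 0.796 in the chemostat and 0.341 to 0.748 in the retentostats, with the lowest values in replicate 2 of day 22 (0.341) and of day 16 (0.472). Of the mating-type markers, 6 MATa-specific genes summed to between 16013.8 and 21026.6 in the chemostat and between 21837.7 and 32545.7 at day 22. The 4 MATalpha-specific genes, which MATa cells normally do not express, summed to between 351.2 and 415.1 and between 2301.8 and 2684.9, and all 4 passed the test at day 22. The part of these markers in the results was not tested.

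Genes were tested with limma over all 5597 genes, and a gene passed at a Benjamini-Hochberg adjusted p under 0.05. The median log2 change of all genes against the chemostat was 0.04, 0.06, 0.14 and 0.23 after 2, 9, 16 and 22 days. Log2 changes for day 16 and day 22, and for day 22 against day 2 (all-gene median 0.19), are therefore printed after this median was taken off. The tests, the folds and the SE (standard error) belong to the changes as fitted, and the particle averages also keep this median.

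At day 22, 14 of the 34 members passed as higher than in the chemostat and 0 as lower (41.2% higher, where 31.8% of all genes passed as higher and 10.8% as lower). The count was 1 at day 2 (background 1.05% higher and 0.500% lower), 13 at day 9 (22.4% and 15.6%) and 12 at day 16 (26.6% and 12.8%). The changes were small: the median fitted log2 change of the members was 0.19, 0.37, 0.34 and 0.39 at the 4 days, against 0.04, 0.06, 0.14 and 0.23 for all genes. At day 2 all 34 members were fitted above the all-gene median, and at day 22 this held for 26. The day 22 arrays lay entirely above the chemostat arrays for 27 members (79.4%), against 46.5% of all genes.

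RPN4 was the member that passed at day 2. RPN4, RPN13, RPT3, RPN10, RPN12, SCL1 and PRE7 passed at day 9, day 16 and day 22. RPN8, RPN5, RPN6, RPN3, RPT1 and PRE4 passed on 2 of these days, and RPN11, RPT6, PRE9, PRE2, PRE5 and PUP3 on 1. In the F test over the 5 groups 7 members passed (RPN4, RPN13, RPT3, RPN10, PRE4, RPN5 and SCL1), against 39.5% of all genes. In the F test over the 4 retentostat days alone 0 of 34 passed with limma, 2 had an unadjusted p under 0.05, and 11.8% of all genes passed. Between day 2 and day 22, 2 members passed as higher (RPN13 and RPT3) and 0 as lower, where 13.5% and 3.23% of all genes passed.

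These counts leaned on single arrays and on the scaling. The day 22 count fell from 14 to 4 without chemostat replicate 2, to 6 without chemostat replicate 1, to 8 without day 22 replicate 1 and to 5 without day 22 replicate 2. At day 9 it was 5 without chemostat replicate 1 or replicate 2, and 2 (RPN4 and RPN13) without day 9 replicate 1. At day 16 it was 4 and 5 without chemostat replicates 1 and 2, and 3 (RPN4, RPN13 and RPT3) without day 16 replicate 2. The F test over 5 groups called 3 members without chemostat replicate 1 or replicate 2, and 4 without replicate 2 of day 16 or of day 22. The F test over the retentostat days called 2 members without either day 9 array. The share of all genes that passed the F tests in these runs is not given, so these F test counts cannot be set against it. With the arrays scaled to 1 median the day 22 count was 4 (RPN4, RPN13, RPT3 and RPN8; 11.8% of members against 20.4% of all genes) and the share of higher genes among all calls was 53.4% in place of 74.7%. With quantile normalization the count was 7 (20.6% against 23.1%) and that share 58.2%. Without the 2 arrays of lowest actin ratio the day 22 count was 4 (RPN4, RPN13, RPT3 and RPN10; 11.8% against 16.6%), and with that ratio as a covariate it was 1 (RPN4; 2.94% against 7.54%). In all of these settings 0 members passed as lower.

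The members' share of higher calls therefore did not stay above that of all genes. At day 22 it fell below it in the 4 settings just given and without chemostat replicate 1 (17.6% against 24.8%) or 2 (11.8% against 24.3%), or day 22 replicate 1 (23.5% against 25.1%) or 2 (14.7% against 18.4%). It stayed above in the other 8 of 12 settings and 7 of 11 runs with 1 array left out. Of these 8 settings, the replicate block gave nearly equal shares (32.4% against 32.3%). Of these 7 runs, only that without chemostat replicate 3 left out an array of the compared groups (32.4% against 30.5%). At day 9 the members' share was below that of all genes with quantile normalization (17.6% against 20.9%) and without chemostat replicate 1 or 2 or day 9 replicate 1. At day 16 it was below in 5 of 12 settings, among them both other scalings (11.8% against 21.4% and 14.7% against 22.0%), and without chemostat replicate 1 or 2 or day 16 replicate 2.

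**Figure D1:**
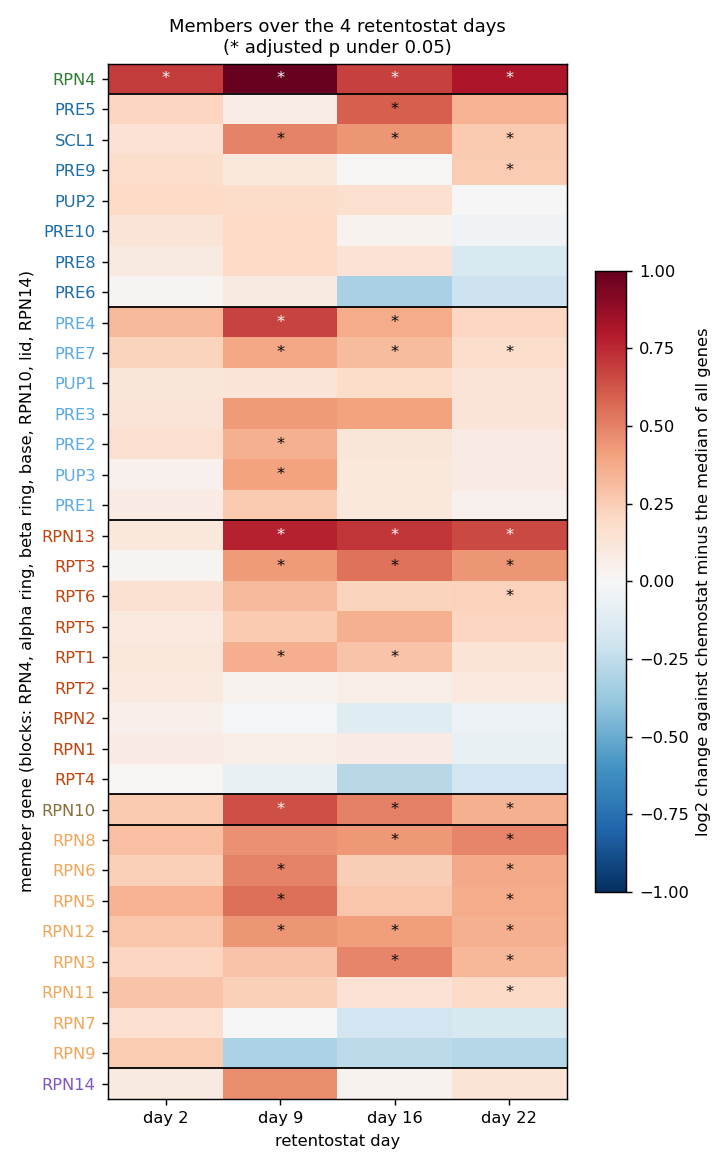
Fitted log2 change of each of the 34 members (rows, grouped by role) against the chemostat at the 4 retentostat days (columns), after the all-gene median was taken off; asterisks mark members with an adjusted p under 0.05. RPN4 is marked on all 4 days, and RPN13, RPT3, RPN10, RPN12, SCL1 and PRE7 on the last 3.

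RPN4 had the largest change of all members at day 2, day 9 and day 22. The chemostat arrays read 549, 509 and 679.8. The retentostat arrays read 957 and 969.7 after 2 days, 1187 and 1203 after 9, 989 and 1039.8 after 16, and 1213 and 1149 after 22. All 8 retentostat arrays were above all 3 chemostat arrays, already at day 2. RPN4 rose at day 2 by a log2 of 0.70 (SE 0.16, 1.68-fold, adjusted p = 0.047) and at day 9 by 0.99 (2.08-fold, adjusted p = 0.000732). The log2 rise was 0.68 at day 16 (1.76-fold, adjusted p = 0.00252) and 0.81 at day 22 (SE 0.16, 2.05-fold, adjusted p = 0.000582). In order of fitted change the gene stood at place 182 of 5597 at day 2 and at place 642 at day 22. Day 22 against day 2 gave a log2 difference of 0.11 (adjusted p = 0.268), which did not pass.

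The RPN4 rises at day 9, day 16 and day 22 passed with each of the 11 arrays left out, with both other scalings, with the actin ratio as a covariate and without the 2 arrays of lowest actin ratio. The day 2 call was less stable. It was lost without chemostat replicate 1 or replicate 2 and without either array of day 2, day 16 or day 22 (adjusted p up to 0.198). It was also lost with the arrays scaled to 1 median (0.0624), with no floor on low intensities (0.0665), with the actin ratio as a covariate (0.0727), without the 2 arrays of lowest ratio (0.134) and with only the compared groups fitted (0.115).

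**Figure D2:**
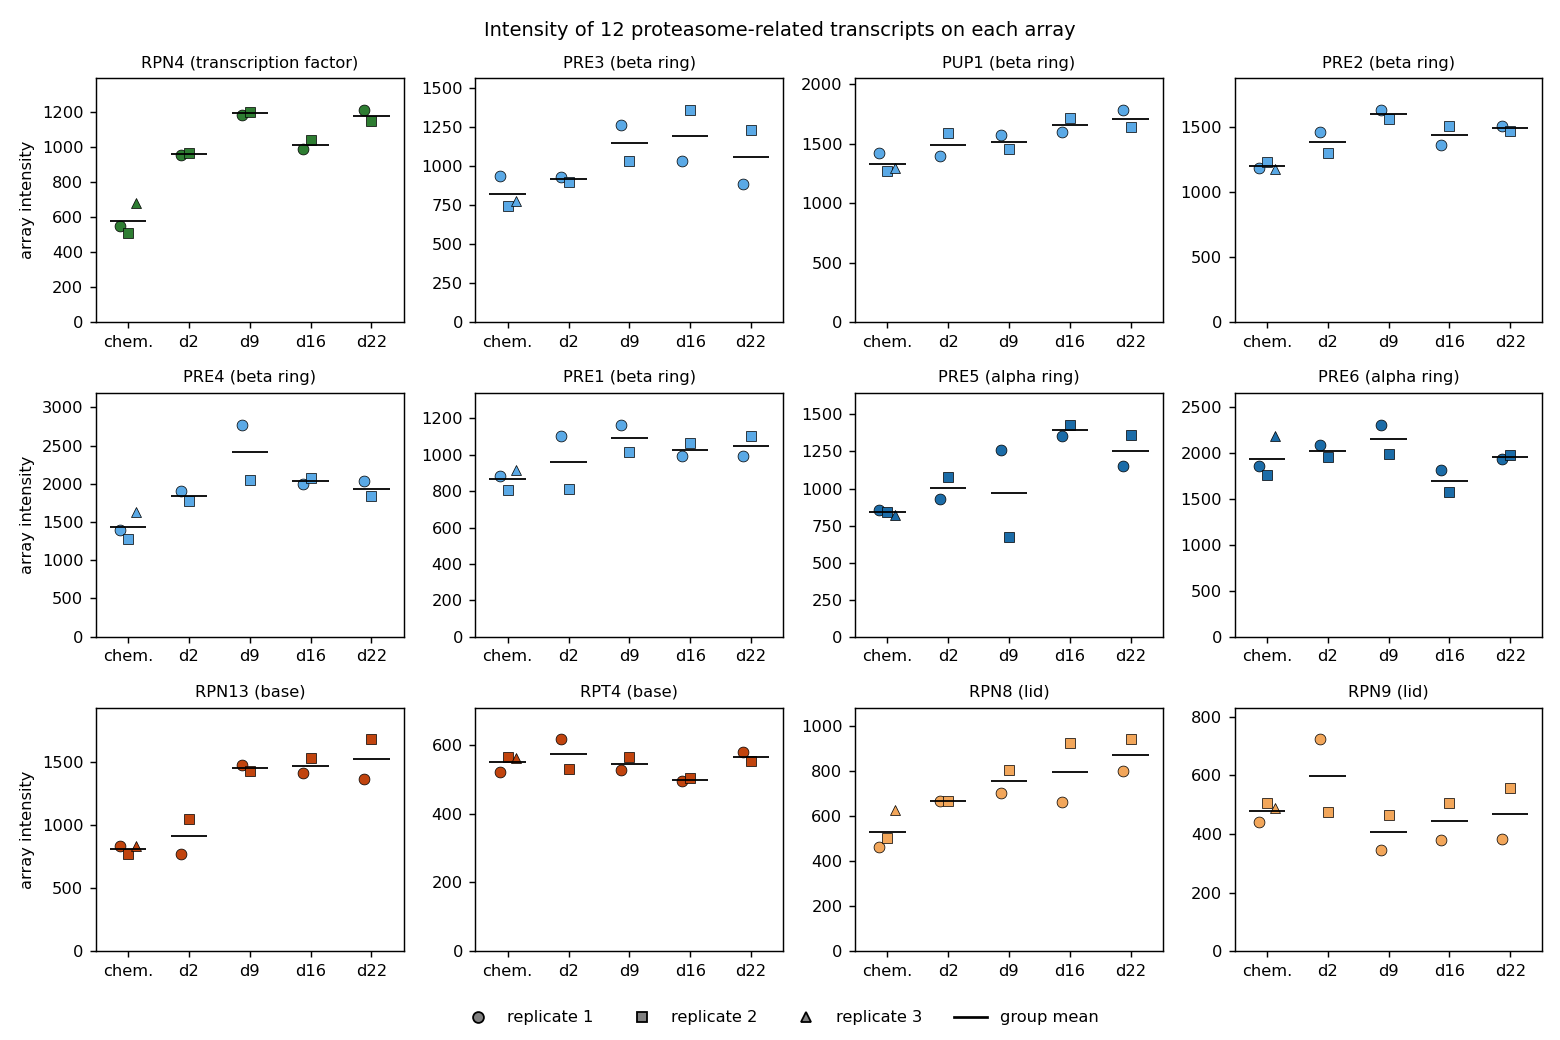
Array intensity (linear axis from 0, arbitrary units) of RPN4 and of the members described with every array, with each array as a point and the group mean as a line, over the chemostat and the 4 retentostat days. For RPN4 and RPN13 every array from day 9 on lies above the chemostat arrays. For RPT4 1 day 22 array lies inside the chemostat range, and for RPN9 the day 22 arrays lie on either side of it.

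The protease sites of the core are in 3 beta subunits. Of the 3 genes 1 passed, on 1 day (day 9, where 22.4% of all genes passed as higher). PRE2 encodes the chymotrypsin-like subunit. Its intensities were 1187, 1230 and 1183 in the chemostat, then 1468 and 1303 after 2 days, 1633 and 1569 after 9, 1367 and 1514 after 16, and 1513 and 1474 after 22. No retentostat array overlapped the chemostat arrays, and the spread within groups (SD 0.071 on the log2 scale) was the smallest of the 34 members, where the median of all genes was 0.221. PRE2 rose at day 9 by 0.35 (SE 0.14, adjusted p = 0.0374). This call was lost without any single chemostat array or either day 9 array (adjusted p up to 0.121). At day 22 its log2 change was 0.08 (adjusted p = 0.0905).

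PUP1 encodes the trypsin-like subunit. Its arrays gave 1418, 1274 and 1297 in the chemostat, then 1394 and 1589 after 2 days, 1569 and 1459 after 9, 1598 and 1717 after 16, and 1780.4 and 1637 after 22. Day 2 overlapped the chemostat and the 3 later days lay above it. At day 22 the log2 change was 0.13 (SE 0.14, adjusted p = 0.0648), and PUP1 passed on no day. PRE3, the caspase-like subunit, gave 936, 747 and 776 in the chemostat, then 932 and 901 after 2 days, 1265 and 1035 after 9, 1035 and 1359.5 after 16, and 889 and 1232 after 22. Replicate 1 of day 22 lay inside the chemostat range, and both day 9 and day 16 pairs lay above it. The change was 0.13 at day 22 (adjusted p = 0.168), and the largest, 0.425 at day 9 and 0.40 at day 16, had adjusted p = 0.0751 and 0.0513. At day 22 the other probe sets of PRE3 stood at -0.08 and -0.23, relative to the median of the 6336 probe sets tested.

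Of the beta subunits without a protease site, PRE4 had the largest change of the ring at day 22 and PRE1 the smallest. PRE4 read 1399, 1276 and 1631 in the chemostat, then 1908 and 1777 after 2 days, 2772 and 2053 after 9, 1997 and 2070.1 after 16, and 2032 and 1837 after 22. All retentostat arrays lay above the chemostat, and 1 of the day 9 arrays stood well above every other array. PRE4 rose at day 9 by 0.68 (SE 0.17, adjusted p = 0.00783) and at day 16 by 0.37 (adjusted p = 0.0394). At day 22 its change was 0.20 (adjusted p = 0.0655). The day 9 call was lost without day 9 replicate 1 (adjusted p = 0.0713), and the day 16 call without chemostat replicate 1 or 2 or any array of day 2 or day 16 (adjusted p up to 0.163).

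PRE1 read 884, 807 and 918 in the chemostat, then 1105 and 812 after 2 days, 1165 and 1015 after 9, 992 and 1064 after 16, and 995 and 1105 after 22. Only at day 2 did its arrays overlap the chemostat, and it passed on no day (0.04 at day 22, adjusted p = 0.22). PRE7 rose at day 9, day 16 and day 22. Its chemostat arrays were closely spaced (821.9, 824.3 and 816.9) and all 8 retentostat arrays were above them, at 917.9 or more. The rise was 0.18 at day 22 (SE 0.14, adjusted p = 0.0358), and each of its 3 calls was lost without any single chemostat array or either array of the day (adjusted p up to 0.12). PUP3 rose at day 9 (0.40, adjusted p = 0.0374) and stood at 0.08 at day 22 (adjusted p = 0.127). The PUP3 call was lost without chemostat replicate 1 or 2 or day 9 replicate 1 (adjusted p up to 0.231).

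In the alpha ring 2 of 7 genes rose at day 22 (SCL1 and PRE9; 28.6%, near the 31.8% of all genes), and the ring's median change was 0.01 after the all-gene median was taken off, against 0.13 for the beta ring. SCL1, an alpha subunit that passed from day 9 on, read 949.7, 1138 and 1085 in the chemostat and 1392 and 1577 at day 22. The groups did not overlap, and SCL1 rose by 0.26 (SE 0.17, adjusted p = 0.0383). PRE9, the alpha subunit that yeast can live without, passed as higher at day 22. Its level went from 414 ± 30.6 (SD, n = 3) to 582 ± 84.4 (SD, n = 2), a rise of 0.26 with adjusted p = 0.0486. At day 22 both calls were lost without any single chemostat array or either day 22 array, and that of PRE9 also without either day 16 array. The adjusted p then reached 0.201 for SCL1 and 0.289 for PRE9.

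PRE5 had the largest and PRE6 the smallest change in the alpha ring at day 22. The PRE5 arrays were 854, 840.2 and 824 in the chemostat, then 930.2 and 1079 after 2 days, 1257 and 676 after 9, 1358 and 1430 after 16, and 1149 and 1362 after 22. The day 9 replicates lay on either side of the chemostat, and the other retentostat arrays lay above it. PRE5 rose at day 16 by 0.59 (SE 0.23, adjusted p = 0.0268). The call was lost without any single chemostat or day 16 array (adjusted p up to 0.136), and the day 22 change of 0.34 did not pass (adjusted p = 0.0633). PRE6 read 1859.6, 1758 and 2185 in the chemostat, then 2093 and 1954 after 2 days, 2309 and 1993 after 9, 1819 and 1581 after 16, and 1931 and 1983 after 22. Both day 22 arrays lay inside the chemostat range, with a change of -0.21 (adjusted p = 0.929). PUP2, PRE8 and PRE10 passed on no day and had changes of 0.01, -0.15 and -0.03 at day 22 (adjusted p = 0.309, 0.718 and 0.3).

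**Figure D3:**
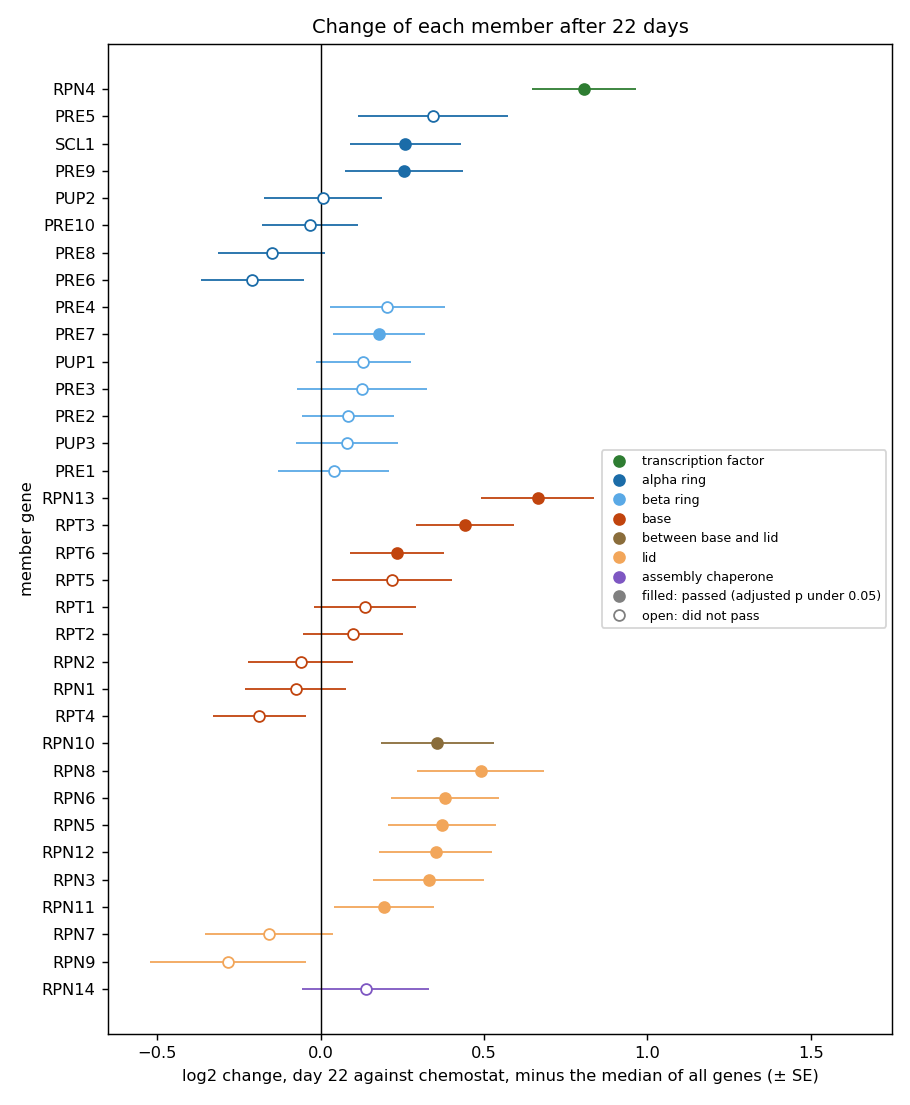
Log2 change of each member at day 22 against the chemostat, after the all-gene median was taken off, with SE bars, coloured by role; filled points passed at an adjusted p under 0.05. RPN4 and RPN13 stand highest (0.81 and 0.66), 6 of 8 lid genes are filled, and RPN9 stands lowest (-0.28).

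In the base of the regulatory particle, RPN13 rose most. Rpn13 is one of the receptors that catch ubiquitin chains at the proteasome. RPN13 read 838, 770.1 and 834 in the chemostat, then 772 and 1049 after 2 days, 1477 and 1425 after 9, 1410.4 and 1529 after 16, and 1365 and 1679 after 22. At day 2 one array was inside and the other above the chemostat range, and from day 9 on every array was at 1364.5 or more. The log2 rise was 0.77 at day 9 (SE 0.17, adjusted p = 0.00393), 0.71 at day 16 (adjusted p = 0.00317) and 0.66 at day 22 (1.86-fold, adjusted p = 0.00216). The fitted rises were 0.835, 0.852 and 0.896. These calls passed with each of the 11 arrays left out. Between day 2 and day 22 RPN13 rose by 0.56 (adjusted p = 0.0218). This difference was lost without day 2 replicate 1 or day 22 replicate 2 (adjusted p up to 0.169) and under both other scalings.

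The Rpt proteins are the ATPases of the base, and of their 6 genes RPT3 and RPT6 passed at day 22 (all genes: 31.8% higher). RPT3 read 527, 563 and 559.5 in the chemostat, then 573 and 579 after 2 days, 845 and 704 after 9, 839.9 and 925 after 16, and 828 and 928 after 22. All retentostat arrays were above the chemostat, those of day 2 by little. RPT3 rose by 0.43 at day 9 (adjusted p = 0.0248), by 0.54 at day 16 (adjusted p = 0.0048) and by 0.44 at day 22 (SE 0.15, adjusted p = 0.0045). Its calls at day 16 and day 22 passed with each array left out, while that at day 9 was lost without chemostat replicate 1 or 2 or day 9 replicate 1 (adjusted p up to 0.147). Day 22 exceeded day 2 by 0.42 (adjusted p = 0.0289), a call lost without chemostat replicate 1 or any array of day 2 or day 22 (adjusted p up to 0.157) and under both other scalings.

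RPT4 had the smallest change of the base. It read 521, 564 and 562 in the chemostat, then 616 and 529.9 after 2 days, 527 and 564 after 9, 495 and 503 after 16, and 578 and 553 after 22. The day 22 pair overlapped the chemostat and the day 16 pair lay below it. The change was -0.28 at day 16 (adjusted p = 0.471) and -0.19 at day 22 (SE 0.14, adjusted p = 0.833). RPT6 rose at day 22 by 0.23 (adjusted p = 0.0244), lost without chemostat replicate 1 or 2 or either day 22 array (adjusted p up to 0.0837). RPT1 rose at day 9 by 0.37 (adjusted p = 0.0495) and at day 16 by 0.29 (adjusted p = 0.0491). Both calls were lost without any single array of the chemostat, day 2 or the day itself. The day 9 call of RPT1 was lost also without either day 16 array. RPT2 and the scaffold subunits RPN1 and RPN2 passed on no day, with changes of 0.10, -0.08 and -0.06 at day 22.

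RPT5 is read by 4 probe sets, and they disagreed. The probe set used here, the brightest, read 496, 473 and 533 in the chemostat and 599.5 and 778 at day 22, with no overlap, and its change of 0.22 did not pass (adjusted p = 0.0695). When each probe set was tested on its own, another read 185, 224.1 and 160.3 in the chemostat and 61.3 and 45.2 at day 22. Its arrays did not overlap either but ran the other way. The log2 change was -2.01 (adjusted p = 0.0109) after the median of the 6336 probe sets tested, in place of the all-gene median, was taken off. On the same scale the remaining probe sets gave -0.56 (adjusted p = 0.251) and, at intensities of 27.5 or less on every array, 0.66 (adjusted p = 0.0193). At day 9 the falling probe set read 213.5 and 71.3 and at day 16 it read 140 and 65.4, with replicate 2 the lower on both days. The direction for RPT5 depends on the probe set.

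**Figure D4:**
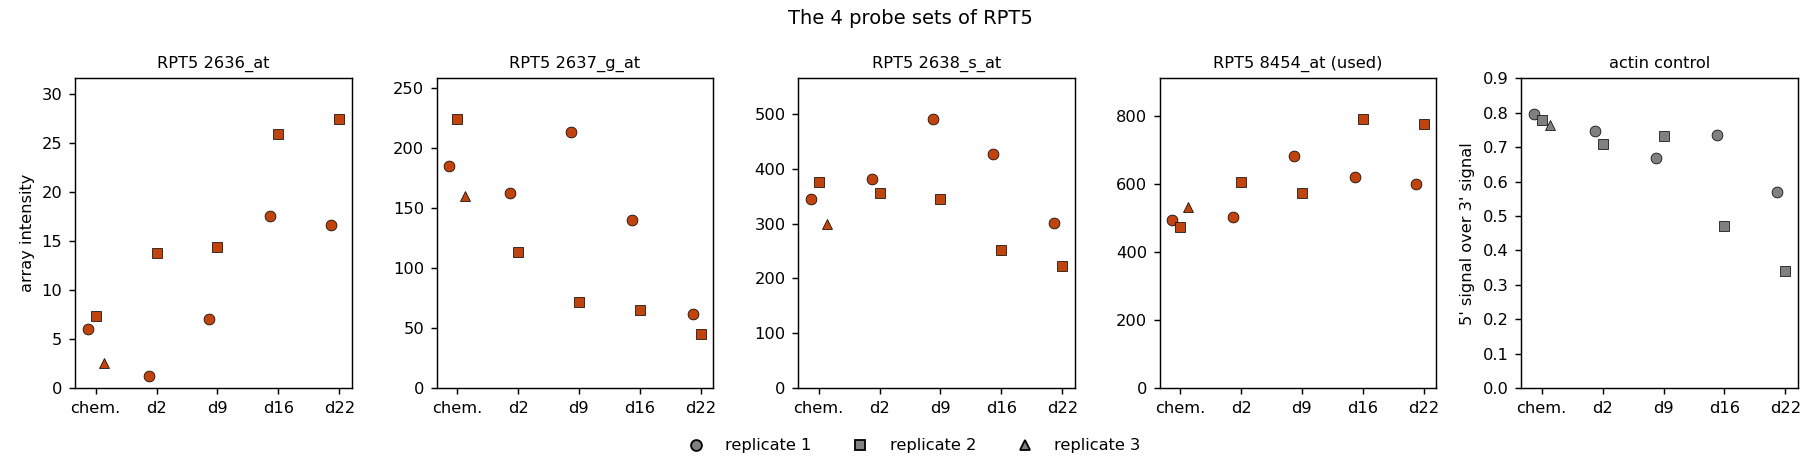
Array intensity (linear axes from 0, arbitrary units) of the 4 probe sets that read RPT5 on each of the 11 arrays, by group, and in the last panel the ratio of 5' to 3' signal of the actin control. The probe set used here is higher at day 22 than in the chemostat, while one of the others falls from between 160.3 and 224.1 to 61.3 and 45.2.

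RPN10 encodes a ubiquitin receptor that lies between base and lid, and it rose from day 9 on. It read 1049.9, 946 and 1179 in the chemostat, then 1192 and 1417 after 2 days, 1772 and 1677 after 9, 1677 and 1607 after 16, and 1816 and 1382 after 22. Every retentostat array lay above the chemostat arrays, and the day 22 replicates lay far apart. The log2 rise was 0.65 at day 9 (SE 0.17, adjusted p = 0.00895), 0.50 at day 16 (adjusted p = 0.0138) and 0.36 at day 22 (adjusted p = 0.0187). The day 22 call was lost without chemostat replicate 1 or 2 or day 22 replicate 1 (adjusted p up to 0.149), and that of day 16 without chemostat replicate 2 or either day 16 array (up to 0.0691). The day 9 call was lost without day 9 replicate 1 (0.0503).

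In the lid 6 of 8 genes rose at day 22 (75%, where 31.8% of all genes did). The median change was 0.34 after the all-gene median was taken off. The base had 3 of 9 (33.3%) and the beta ring 1 of 7 (14.3%), and the difference in shares was not tested. Of the 6 lid calls only those of RPN6 and RPN8 were kept with quantile normalization (all genes: 23.1% higher). Only that of RPN8 was kept with the arrays scaled to 1 median (20.4%), and none with the actin ratio as a covariate (7.54%). RPN8 encodes the partner of the deubiquitinating enzyme Rpn11. Its arrays read 461, 503 and 625 in the chemostat, then 666 and 668 after 2 days, 704 and 805 after 9, 662 and 925 after 16, and 798 and 940.1 after 22. All 8 retentostat arrays lay above the chemostat, and the day 16 pair was the most spread of the pairs. RPN8 rose by 0.44 at day 16 (adjusted p = 0.0367) and by 0.49 at day 22 (SE 0.19, 1.65-fold, adjusted p = 0.0125). The day 22 call was lost without day 22 replicate 2 (adjusted p = 0.106), and the day 16 call without chemostat replicate 1 or 2 or day 16 replicate 2 (up to 0.313).

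RPN9, a scaffold subunit of the lid, had the lowest day 22 change of all 34 members. It read 442, 507 and 489 in the chemostat, then 723 and 475 after 2 days, 347 and 465 after 9, 379.7 and 506 after 16, and 384 and 555 after 22. The day 22 arrays fell on either side of the chemostat, and the within-group SD of 0.294 was the largest of the members. Its change was -0.28 (SE 0.24, adjusted p = 0.892), and without day 22 replicate 1 the fitted change turned from -0.05 to 0.22. RPN7, also a lid scaffold subunit, had a change of -0.16 (adjusted p = 0.792).

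RPN11 encodes the enzyme that removes ubiquitin chains from substrates as they enter. RPN11 rose at day 22 by 0.19 (adjusted p = 0.0443), from 1012 ± 36.5 (SD, n = 3) to 1359 ± 55.1 (SD, n = 2). The call was lost without any single chemostat or day 22 array (adjusted p up to 0.149). The scaffold subunits RPN6, RPN5, RPN12 and RPN3 rose at day 22 by 0.38, 0.37, 0.35 and 0.33 (adjusted p = 0.0127, 0.0138, 0.0193 and 0.0215). Each of these calls was lost without chemostat replicate 2. They were also lost without day 22 replicate 1 (RPN6) or replicate 2 (RPN5, RPN12 and RPN3), and those of RPN12 and RPN3 without chemostat replicate 1. The adjusted p then reached 0.0714, 0.114, 0.129 and 0.176.

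RPN14, an assembly chaperone of the base that is not part of the finished complex, passed on no day. It read 83.5, 109 and 116 in the chemostat, 159.5 and 135 after 9 days and 141 and 123 after 22. Both later pairs lay above the chemostat arrays, with changes of 0.46 at day 9 (adjusted p = 0.0537) and 0.14 at day 22 (adjusted p = 0.147).

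Both particles were compared as averages over their genes, here with the all-gene median not taken off. Over its 14 genes, the core stood above the chemostat mean by a log2 of 0.24 and 0.14 after 2 days, 0.43 and 0.26 after 9, 0.27 and 0.39 after 16, and 0.28 and 0.37 after 22. The 18 regulatory genes gave 0.25 and 0.17, then 0.33 and 0.35, then 0.25 and 0.46, and then 0.37 and 0.48. On every retentostat array both averages lay above those of the 3 chemostat arrays. The median of all genes moved by 0 and 0.08 on the day 2 arrays and by 0.035 and 0.109 on those of day 9. It moved by 0.115 and 0.178 on the day 16 arrays and by 0.20 and 0.27 on those of day 22. The averages of both particles include this shift.

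At day 2, day 9 and day 16 the mean difference between the particles lay inside the chemostat range, and at day 22 it lay below it. Core minus regulatory change was -0.02 ± 0.02 (SD, n = 2) after 2 days, 0.01 ± 0.14 after 9, -0.03 ± 0.06 after 16 and -0.10 ± 0.02 after 22. The chemostat arrays themselves ranged from -0.05 to 0.05. Both day 22 arrays (-0.09 and -0.12) were below this range, as was 1 of the day 9 pair (-0.09) and 1 of the day 16 pair (-0.07). The other day 9 array, at 0.11, was the highest of all 11. The pooled within-group SD was 0.07, and no p was computed, since the value is a mean over chosen genes. The day 22 value depended on the setting. It was -0.03 with quantile normalization and -0.05 with the actin ratio as a covariate. Scaling the arrays to 1 median multiplies all values of an array alike, so it could not move this difference (-0.10).

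At the level of calls, 10 of 18 regulatory genes and 3 of 14 core genes passed as higher at day 22 (55.6% and 21.4%, where 31.8% of all genes did, so that the core lay below this background). At day 9 the counts were 7 of 18 and 5 of 14 (38.9% and 35.7%, against 22.4%), and at day 16 they were 7 of 18 and 4 of 14 (38.9% and 28.6%, against 26.6%). The day 22 counts without chemostat replicate 2 were 3 regulatory and 0 core genes, and without day 22 replicate 2 they were 4 and 0. They were 10 and 6 without day 9 replicate 2, 10 and 5 without day 9 replicate 1, and 11 and 6 with a floor of 50, where the counts lay closer. Day 22 arrays lay wholly above the chemostat for 14 of the 18 regulatory and 11 of the 14 core genes, where 46.5% of all genes did so. With quantile normalization 5 regulatory genes and 1 core gene passed at day 22, where 23.1% of all genes passed as higher. With the arrays scaled to 1 median the counts were 3 and 0 (all genes: 20.4%). They were 0 and 0 with the actin ratio as a covariate (all genes: 7.54%). The difference between the particles in calls was not tested.

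**Figure D5:**
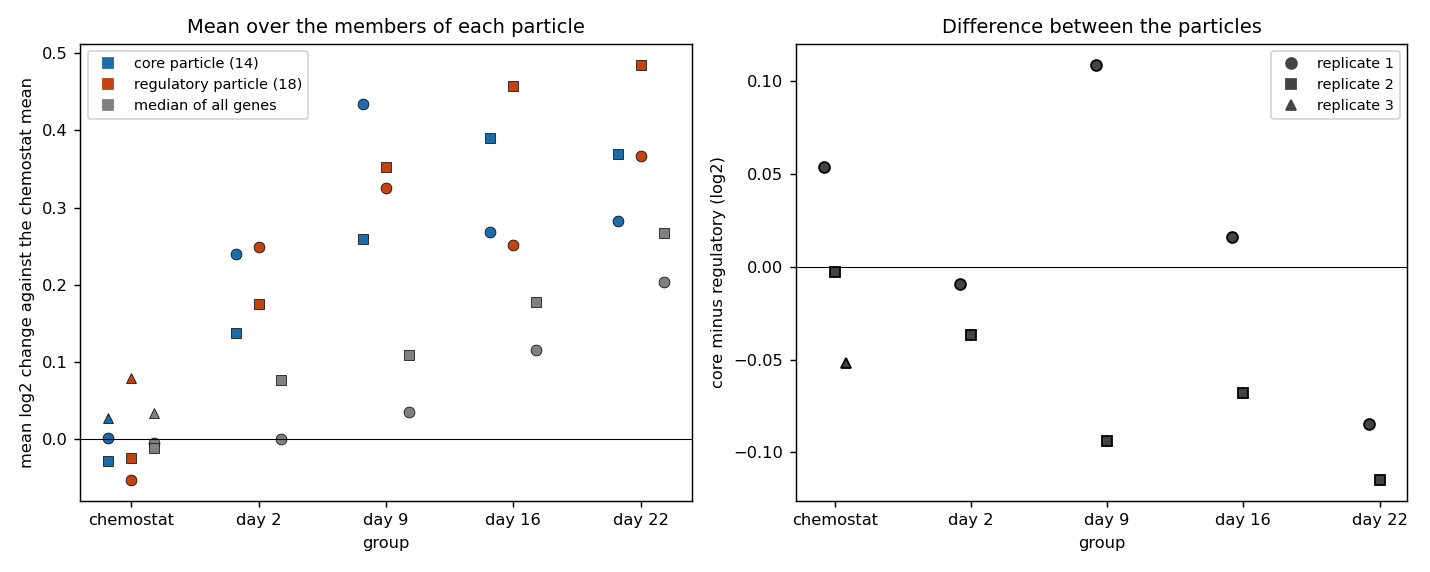
Mean log2 change of the 14 core genes and of the 18 regulatory genes on each array relative to the chemostat mean, beside the median of all genes (grey), and, in the right panel, core minus regulatory, by group, with each array as a point. Both particles lie above the chemostat on all 8 retentostat arrays, and the difference lies between -0.12 and 0.11 throughout.

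Replicates of a day differed in the same direction for many members. At day 16 replicate 2 was the higher for 29 of 34 members, among them all 8 lid and all 9 base genes, with a median log2 difference (replicate 1 minus replicate 2) of -0.17 against -0.07 for all genes. It is also the array with the second lowest actin ratio. At day 22 replicate 2, with the lowest ratio, was the higher for 21 members. At day 2 replicate 1 was the higher for 6 of 8 lid genes, by a median of 0.33, and at day 9 for 11 of 14 core genes, by a median of 0.17.

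Genes that build, feed or regulate the proteasome were counted in 7 lists, to be read against the 31.8% of all genes that passed as higher at day 22 and the 10.8% that passed as lower (22.4% and 15.6% at day 9, 26.6% and 12.8% at day 16). Of 8 assembly chaperones 5 rose at day 22 and none fell, with a median fitted change of 0.80 against 0.23 for all genes. NAS6, a chaperone of the base, rose by 0.77 (adjusted p = 0.00272) and UMP1, which helps the core mature and is then degraded by it, by 0.73 (adjusted p = 0.00122). The count was 0 at day 2, 4 at day 9 and 5 at day 16. UMP1 read 190.8, 168.7 and 171.4 in the chemostat, 220.1 and 242.5 after 2 days, and 333 and 356 after 22, with no overlap from day 2 on. At day 22, 3 of the chaperones passed without day 22 replicate 2, 2 without both arrays of lowest actin ratio and 0 with that ratio as a covariate. NAS6 and UMP1 passed with each of the 11 arrays left out.

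Of 7 proteasome-associated genes 2 rose and 1 fell at day 22, shares near those of all genes (31.8% and 10.8%). SPG5, needed for proteasome function in stationary phase, rose by 1.43 (adjusted p = 0.00142) and HUL5, a proteasome-bound ubiquitin ligase, by 0.69 (adjusted p = 0.00304). ECM29, which tethers core to regulatory particle, dropped by 1.83 (adjusted p = 0.00726), from 171.8, 207.7 and 141.6 in the chemostat to 87.5 and 36.9 at day 22. At day 9 the list had 2 genes higher and 3 lower. The ECM29 call was lost without day 22 replicate 2 (adjusted p = 0.113), which left 2 calls on the list. It was also lost when the probe sets of the gene were averaged (0.193), with the actin ratio as a covariate (0.739) and without the 2 arrays of lowest ratio (0.0815). SEM1, a lid subunit whose symbol the rule did not take, and which is named here for that reason, changed by 0.27 and did not pass (adjusted p = 0.0732).

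Of 13 measured genes for ubiquitin and its conjugation 6 rose at day 22 and none fell, where 31.8% of all genes rose. UBC7, a conjugating enzyme of endoplasmic reticulum quality control, rose by 1.06 (adjusted p = 0.000141) and UBC5, a stress-induced one, by 0.92 (adjusted p = 0.000398). UBC7 and UBC5 passed with each array left out. The list had 1 gene higher at day 2, 5 at day 9 and 5 at day 16, and none lower. Of 11 ubiquitin ligase genes 4 rose and none fell at day 22, a share near that of all genes, where 3 rose at day 16 and at day 9 there were 2 higher and 1 lower. MUB1, a partner of Ubr2 in ubiquitinating Rpn4, rose by 0.83 (adjusted p = 0.00751) and UFD4 by 0.41 (adjusted p = 0.0076). UBR2, named here as the partner of MUB1, was the gene lower at day 9 (-0.83, adjusted p = 0.011). At day 22 the change of UBR2 was -0.42 and did not pass (adjusted p = 0.468). Without day 22 replicate 2 only 1 ligase gene passed, and the MUB1 and UFD4 calls were lost (adjusted p = 0.106 and 0.0748).

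Of 8 genes for shuttle factors and Cdc48, which carry ubiquitinated proteins to the proteasome, 2 rose and 1 fell at day 22, near the 31.8% and 10.8% of all genes. NPL4 and UFD1, which encode a pair of Cdc48 cofactors, rose by 0.33 (adjusted p = 0.0227) and 0.20 (adjusted p = 0.0384). DOA1, needed to keep up the ubiquitin supply, dropped by 1.01 (adjusted p = 0.00718). NPL4 was lost without chemostat replicate 2 or day 22 replicate 2 (adjusted p up to 0.144), which left 1 call on the list. UFD1 was lost also without chemostat replicate 1 or day 22 replicate 1 (up to 0.126), DOA1 without day 22 replicate 1 (0.0756), and NPL4 and UFD1 under both other scalings. Of 6 deubiquitinating enzymes UBP2 rose (1 of 6, under the 31.8% of all genes), by 0.47 (adjusted p = 0.0123), and it was lost without day 22 replicate 2 (adjusted p = 0.14) and under both other scalings.

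Of 4 known regulators of RPN4 transcription 2 rose at day 22 (all genes: 31.8%), as did 2 at day 16 and 1 at day 9. YAP1 rose by 0.65 (adjusted p = 0.00439) and PDR1 by 0.62 (adjusted p = 0.00165). YAP1 read 161.2, 188.1 and 193 in the chemostat and 302 and 366 at day 22, and PDR1 read 473.2, 508.7 and 612.3 and then 941 and 968. Both groups of day 22 arrays were above the chemostat. The YAP1 call was lost without day 22 replicate 2, where its fitted change was 0.744 in place of 0.883. At day 2 the fitted changes of YAP1 and PDR1 were 0.28 and 0.19 (adjusted p = 0.508 and 0.595). Neither passed on that day, when 1.05% of all genes passed as higher. The part of these regulators in the rise of RPN4 was not tested. With the actin ratio as a covariate, UBC7 and UBC5 were the only genes of these 7 lists that passed at day 22.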

How the data were processed

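RNA from 3 chemostat cultures and from duplicate retentostats sampled on 4 days (11 samples) was hybridised to Affymetrix YG-S98 arrays. The deposited values are intensities per probe set, made by the authors with GCOS 1.2 per the submitters' processing notes; its scaling settings were not given in these sources. Of 9335 probe sets, 60 were controls, 6504 carried 1 gene, 328 several and 2443 none. Only those with 1 gene were used, named through the platform annotation. Intensities under 12 were set to 12 and log2 was taken. Of 5656 genes, 315 had several probe sets, and the brightest (highest mean log2) was kept; 59 genes at the floor on every array were dropped.

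One linear model held a mean per group (limma 3.58.1, R 4.3.3), with 6 residual and, from all genes, 4.85 prior degrees of freedom. Tests were two-sided, with Benjamini-Hochberg adjustment over the 5597 genes within each comparison and a threshold of 0.05. The F tests cover the 5 groups or the 4 retentostat days. On simulated data the day 22 test recovered 73% of genes changed by a log2 of 1 and 98% of those changed by 2. The number of arrays limits the precision. Particle levels are means of log2 values over genes, with no test.

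The members and gene lists were chosen with earlier results of these data known. Each member of the rule is named, and every array is given for RPN4, the catalytic subunits and, in each ring, the base and the lid, the genes with the highest and lowest day 22 change. Up to 2 risen and 2 fallen genes with the largest day 22 change are named per list. Other probe sets of PRE3 and RPT5 were tested on their own as an alternative chosen after seeing the data. Promoter and protein sequences and coordinates are not used here. Replicate numbers of the retentostats are not stated to mark 1 vessel over the days. The replicate 1 minus 2 differences of all genes correlated between days at 0.07 to 0.39.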

Additional observations from a re-analysis of the deposited data

How the results depend on the processing

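The called members kept their direction under every alternative run. No member passed as lower except RPT5 at day 22 by 1 of its single probe sets (fitted change -1.837, adjusted p = 0.0109). The cause of the moves below was not tested. For the F tests the share of all genes that passed in each run is not given. Their member counts therefore cannot be set against it. With quantile normalization the members called were 6 at day 9, 4 at day 16, 7 at day 22, 0 for day 22 against day 2 and 3 in the F test over 5 groups. With the arrays scaled to 1 median the counts were 0 at day 2, 5 at day 16, 4 at day 22, 0 for day 22 against day 2 and 3 in that F test. With no floor they were 0 at day 2 and 4 in the F test over 5 groups. A floor of 50 gave 12 in the F test over 5 groups and 2 in that over the retentostat days, and no filter gave 12 and 1. Restricting the test to a mean intensity of 50 or more, or averaging the probe sets of a gene, gave 1 in the F test over the retentostat days. So did taking the replicate number of the retentostats as a random block (consensus correlation 0.079). The labels do not state that this number marks 1 vessel over the days. With only the compared groups fitted, 0 members passed at day 2 and 0 for day 22 against day 2. With the actin ratio as a covariate the counts were 0 at day 2, 5 at day 16, 1 at day 22, 0 for day 22 against day 2 and 3 in the F test over 5 groups. Without the 2 arrays of lowest actin ratio they were 0, 3, 4, 0 and 3.

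With the replicate block the counts were 1 at day 2, 12 at day 9, 9 at day 16, 11 at day 22, 2 for day 22 against day 2, 7 in the F test over 5 groups and 0 in that over the retentostat days. The block kept 10 of the 14 day 22 calls. Samples share a number only: 1 of the correlations between days was under 0.1 (day 9 with day 16, 0.07).

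Leaving out each array in turn gave 0 to 1 members at day 2, 2 to 13 at day 9, 3 to 15 at day 16, 4 to 17 at day 22, 0 to 2 for day 22 against day 2, 3 to 9 in the F test over 5 groups and 0 to 2 in that over the retentostat days. The core minus regulatory change at day 22 was -0.126 to -0.073 over these, and -0.126 to -0.032 over all settings. Of the arrays left out, only those of the chemostat or day 22 could move it. The other floors and filters and scaling to 1 median could not move it, since they leave the differences between these genes within an array as they are.

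Reversals here are changes of sign of the fitted change at day 22, with the all-gene median not taken off. They were limited to members that had not passed at day 22. After the all-gene median was taken off, PRE6, PRE8, PRE10, RPN1, RPN2, RPN7 and RPT4 were already below 0 in the main fit. With quantile normalization the reversals were PRE6 (-0.021), PRE8 (-0.023), RPN1 (-0.040), RPN2 (-0.024), RPN7 (-0.106) and RPT4 (-0.155). With scaling to 1 median they were PRE10 (-0.015), PRE6 (-0.191), PRE8 (-0.132), RPN1 (-0.059), RPN2 (-0.043), RPN7 (-0.140) and RPT4 (-0.170). With the actin ratio as a covariate they were PRE3 (-0.157), PUP2 (-0.038), RPN1 (-0.094), RPN7 (-0.064) and RPT5 (-0.018). Averaging probe sets turned RPT5 to -0.234. Single probe sets gave PRE3 -0.059 and RPT5 -1.837 and -0.384. With an array left out PRE6 ran from -0.043 (chemostat replicate 2) to 0.114, below 0 also without chemostat replicate 1 (-0.002), and RPN9 from -0.317 to 0.215 (day 22 replicate 1).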
